A study of Mus musculus with 24 samples.

Results

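Sets of mouse thymic lymphomas that lay at opposite ends of the range of Grb10 mRNA were compared: 5 Grb10-high lymphomas and 5 Grb10-low lymphomas, 10 of the 24 libraries of the series. The members were selected on the level of Grb10 itself, its reads over the total of the library, as the 5 highest and the 5 lowest of 21 lymphomas. The same 10 libraries are the columns of a table in which the authors gathered Grb10-high and Grb10-low lymphomas. Just inside and just outside the limits, the fifth highest lymphoma (TL21) had 8.33 and the sixth (TL12) 3.63 CPM (the count over the library's total, times 1e+06), and the fifth lowest (TL17) had 0.162 and the next (TL22) 0.226 CPM, before any scaling. TL17 held 5 Grb10 reads and TL22 held 4, so the edge of the low group lies within counting error. The remaining 11 lymphomas and 3 samples of normal thymus are used below for description.

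All lymphomas arose in female B6C3F1 mice, a hybrid of C57BL/6 and C3H stock, that were given carbon ions to the whole body in 4 weekly doses of 1.6 Gy from an age of 4 to 5 weeks. Such ions are charged particles of high mass whose energy is deposited densely along their track. The titles of the normal thymus samples carry the mark 7W, read here as an age of 7 weeks. Every group shares the irradiation label, the normal thymus included, so no group here stands for unirradiated lymphoma. Whether the mice of the normal thymus samples were in fact irradiated cannot be told from this shared label. The Grb10-high lymphomas are TL7, TL21, TL30, TL34 and TL35, of which 1 (TL7) carried an Ikzf1 mutation. The Grb10-low lymphomas are TL2, TL4, TL17, TL31 and TL32, of which 3 (TL2, TL4 and TL17) carried one, as read from column names in count tables that the authors had split by mutation. Ikzf1 encodes Ikaros, a zinc-finger transcription factor and tumour suppressor of the T-cell lineage. Whether each lymphoma came from an animal of its own is not stated, and p-values then cover only the spread from sample to sample, which may be technical in part. RNA was taken from cell suspensions, and in such bulk RNA fewer cells of a type and less RNA per cell cannot be told apart.

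Grb10 encodes an adaptor protein that binds activated insulin and insulin-like growth factor receptors and, as a substrate of mTORC1, damps insulin and growth factor signalling. In mice it is an imprinted gene: most tissues use the maternal copy, while neurons use the paternal copy from another promoter. It lies on proximal chromosome 11 (chr11:11930508-12038683, minus strand, GRCm38), close to Ikzf1 and beside Ddc. In developing T cells, Notch1 signalling drives commitment and the first receptor rearrangement. Rag1 and Rag2 carry out that rearrangement, and Ptcra encodes the alpha chain of the pre-T-cell receptor.

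RefSeq lists more than 1 start site for Grb10, and the windows of 300 bases around a pair of them (GRCm38.p6, minus strand, printed in the direction of transcription, CG dinucleotides in capitals) are shown because the groups rest on the level of this gene. The upstream window, chr11:12037371-12037670, holds 45 CG, and 1.93% of the 32851 RefSeq promoter windows of the mouse hold as many. The downstream window, chr11:12027922-12028221, holds 9 CG, a number reached by 45.8% of windows. The counts per gene used here do not say from which start the reads came.
Grb10 upstream window: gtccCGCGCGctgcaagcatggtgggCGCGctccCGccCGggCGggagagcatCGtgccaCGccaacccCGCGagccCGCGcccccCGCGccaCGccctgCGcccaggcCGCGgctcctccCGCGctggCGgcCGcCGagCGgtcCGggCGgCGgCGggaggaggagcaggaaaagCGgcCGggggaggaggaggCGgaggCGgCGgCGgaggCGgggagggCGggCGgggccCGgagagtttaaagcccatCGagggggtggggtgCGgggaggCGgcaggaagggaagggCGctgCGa
Grb10 downstream window: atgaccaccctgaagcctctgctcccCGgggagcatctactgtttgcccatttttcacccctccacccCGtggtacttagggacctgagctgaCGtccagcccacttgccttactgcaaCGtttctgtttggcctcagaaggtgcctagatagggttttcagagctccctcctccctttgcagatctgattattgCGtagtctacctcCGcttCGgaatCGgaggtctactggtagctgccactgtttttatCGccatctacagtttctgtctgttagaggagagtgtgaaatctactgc

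From here on, levels are CPM scaled by TMM factors, which correct for the makeup of each library, over the 24 libraries. Grb10 had 10.1, 8.19, 9.41, 9.45 and 22.2 CPM in the Grb10-high lymphomas TL7, TL21, TL30, TL34 and TL35. It had 0, 0.12, 0.161, 0.131 and 0.0637 CPM in the Grb10-low lymphomas TL2, TL4, TL17, TL31 and TL32. The 5 low libraries together held 13 Grb10 reads, against 1295 in the 5 high libraries. In TL2 the count of 0 allows a level of up to 0.162 CPM (3 counts of its total, counting error only, before scaling), so the order among the low lymphomas is within counting error. Normal thymus, at 0.237 to 0.329 CPM, lay above all 5 low and below all 5 high lymphomas. Thymus held 6 to 9 Grb10 reads a library and TL17 held 5, so a place of thymus above the whole low group is within counting error. The lymphoma levels chose the groups and are given as a description.

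Total counts were 14998988 to 28538820 in the Grb10-high and 16004690 to 30880660 in the Grb10-low libraries. Cd3e, a subunit of the T-cell receptor complex, was present in all 10 lymphomas, at 162 to 382 CPM in the high and 215 to 407 CPM in the low group. In a principal component analysis of the 10 libraries, the first component took 26.7% of the variance and set TL7 (score 101) and TL35 (61.4) apart from the other 8, whose scores were -41.4 to -0.6. Both are Grb10-high, so results that rest on them are given below with and without them. B-cell markers were highest in TL35, where the 14 markers summed to 291.9 CPM, against 8.26 to 89.4 CPM in the other 4 high and 4.75 to 80.6 CPM in the 5 low lymphomas. The part of B cells in the results was not tested. The 20 macrophage markers summed to 1103 ± 176 CPM in the high and 1057 ± 314 CPM in the low group (mean ± SD, n = 5 each; exact two-sided permutation test p = 0.817).

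Whether other genes differ with the level of Grb10 was tested over 11519 genes with edgeR's quasi-likelihood test. None passed a Benjamini-Hochberg adjusted p of 0.05 (0% of genes), while 1195 had an unadjusted p under 0.05, of which 611 were higher in the Grb10-high group (5.30% of the genes tested) and 584 lower (5.07%). DESeq2 on the same counts called 210 genes (1.82%), 100 higher and 110 lower, and limma-voom called 0, with 1196 at an unadjusted p under 0.05. For 81 genes (0.703%) every Grb10-high lymphoma lay above every Grb10-low one, and for 172 (1.49%) every one lay below. The genes described next are those with the smallest p in each direction and the largest differences between groups that did not overlap. In the main test they are not past the threshold, and adjusted p-values below are edgeR's unless DESeq2 is named.

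Hspg2, which encodes perlecan, a heparan sulfate proteoglycan of basement membranes, had the largest difference among genes higher in each Grb10-high lymphoma than in each Grb10-low one and with at least 10 CPM. It had 59.6, 50.7, 29.6, 53.7 and 142 CPM in TL7, TL21, TL30, TL34 and TL35, against 1.54, 0.998, 1.32, 1.38 and 6.5 CPM in TL2, TL4, TL17, TL31 and TL32. The groups did not overlap, and the 5 low lymphomas lay around the thymus range of 1.97 to 2.76 CPM. The log2 fold change was 4.88 ± 0.67 (SE) with an adjusted p of 0.097. Without TL32, the low lymphoma with the most Hspg2, it was 5.69 and the adjusted p 0.0104, and under log2 TPM with a pseudocount of 1 the adjusted p was 0.0409. It was 0.17 with all 24 libraries in the fit, 0.324 without TL2, 0.578 in the lymphomas without Ikzf1 mutation and 0.85 without those low on proximal chromosome 11. The 15 markers of fibroblasts, cells that also make perlecan, summed to 1887 to 3005 CPM in the high and 1908 to 2857 CPM in the low group. Of the 14 tested, 12 had a positive fold change, with a median of 0.43, and 8 did without TL7 and TL35, with a median of 0.09. Acta2, the smooth muscle actin, had 42.2 CPM in TL35, 0.358 to 2.16 CPM in the other 4 high and 0.16 to 1.21 CPM in the low lymphomas. The part of these cells in the Hspg2 difference was not tested.

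The Hspg2 promoter window (chr4:137468553-137468852, plus strand, GRCm38.p6, RefSeq) is shown because this was the largest of these differences. The letters TGGGAA, a core that both the Notch partner RBPJ and Ikaros can bind, were searched on both strands and are in capitals; 25.6% of all promoter windows of this length hold them. The match is a description of the sequence and not a measured binding site.
Hspg2 window: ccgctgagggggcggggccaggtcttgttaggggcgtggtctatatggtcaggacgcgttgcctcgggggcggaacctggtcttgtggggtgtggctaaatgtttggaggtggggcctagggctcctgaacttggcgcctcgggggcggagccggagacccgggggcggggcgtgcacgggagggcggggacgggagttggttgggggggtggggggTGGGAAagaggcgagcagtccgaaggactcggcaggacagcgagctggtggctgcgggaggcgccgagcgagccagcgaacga

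Rab15, a small GTPase of the endosomal recycling route, was low in level but as cleanly split. It had 10, 10.8, 4.12, 2.67 and 2.92 CPM in the Grb10-high lymphomas, in the order above, against 0.44, 0.2, 0.482, 0.425 and 0.382 CPM in the Grb10-low ones. Its log2 fold change was 3.98 ± 0.54 (SE), adjusted p = 0.097, and it passed, with an adjusted p of 0.0199, when all 24 libraries shared 1 estimate of the spread. In edgeR's other alternatives its adjusted p was 0.0563 to 0.888. Pck2, the mitochondrial phosphoenolpyruvate carboxykinase, had 50.4, 18.1, 74.7, 16.5 and 57.2 CPM in the high and 4.34, 1.56, 5.37, 1.28 and 5.1 CPM in the low lymphomas. Cdkn1a (p21), the cyclin-dependent kinase inhibitor that p53 induces, had 7.46, 28.8, 27.1, 13.4 and 12.5 CPM in the high and 1.38, 2.04, 4.63, 2.91 and 2.61 CPM in the low lymphomas. Log2 fold changes were 3.63 ± 0.59 for Pck2 and 2.72 ± 0.46 for Cdkn1a, with adjusted p-values of 0.166 and 0.17. Of the 22 p53 target genes tested, 12 had a positive fold change and Cdkn1a was the 1 whose groups did not overlap in the higher direction, against 0.703% of all genes. At an unadjusted p under 0.05, 1 member was higher and 2 were lower, against 5.30% and 5.07% of all genes tested. Plk2 of that list went the other way, with overlapping groups that averaged 1.18 CPM in the high and 24.6 CPM in the low lymphomas (log2 fold change -4.38 ± 1.05, SE). Pde4a, a cyclic AMP phosphodiesterase, averaged 12.2 ± 6.8 CPM in the high and 2.00 ± 1.00 CPM in the low group (SD, n = 5 each). Polr2g, a subunit of RNA polymerase II, averaged 126.9 ± 7.1 CPM in the high and 91.2 ± 9.0 CPM in the low group (SD, n = 5 each).

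Further genes had non-overlapping groups and at least 10 CPM in the higher one. Icosl, the ligand of the costimulatory receptor ICOS, had 14.3 to 50.4 CPM in the Grb10-high and 0.753 to 9.94 CPM in the Grb10-low lymphomas. Cd72, a coreceptor best known from B cells, had 11 to 43.4 CPM in the high and 1.4 to 6.94 CPM in the low lymphomas. In both genes TL35, the library with the most B-cell marker RNA, was the highest. Without TL7 and TL35 the log2 fold changes were 2.05 ± 0.77 for Icosl and 1.95 ± 0.53 for Cd72 (SE). Bst2 (tetherin), an interferon-induced restriction factor, had 89.5, 119.7, 118, 137 and 74.2 CPM in the high and 17.5, 44.3, 43.8, 32.8 and 69.8 CPM in the low lymphomas. Oaf, Fhl2 (a LIM-domain cofactor), Prrc1, Serpini1 (neuroserpin) and Abhd5 (a lipase coactivator) were likewise higher in each Grb10-high than in each Grb10-low lymphoma, with log2 fold changes of 3.14, 2.94, 1.65, 1.54 and 1.26, and edgeR adjusted p-values between 0.28 and 0.382.

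**Figure D1:**
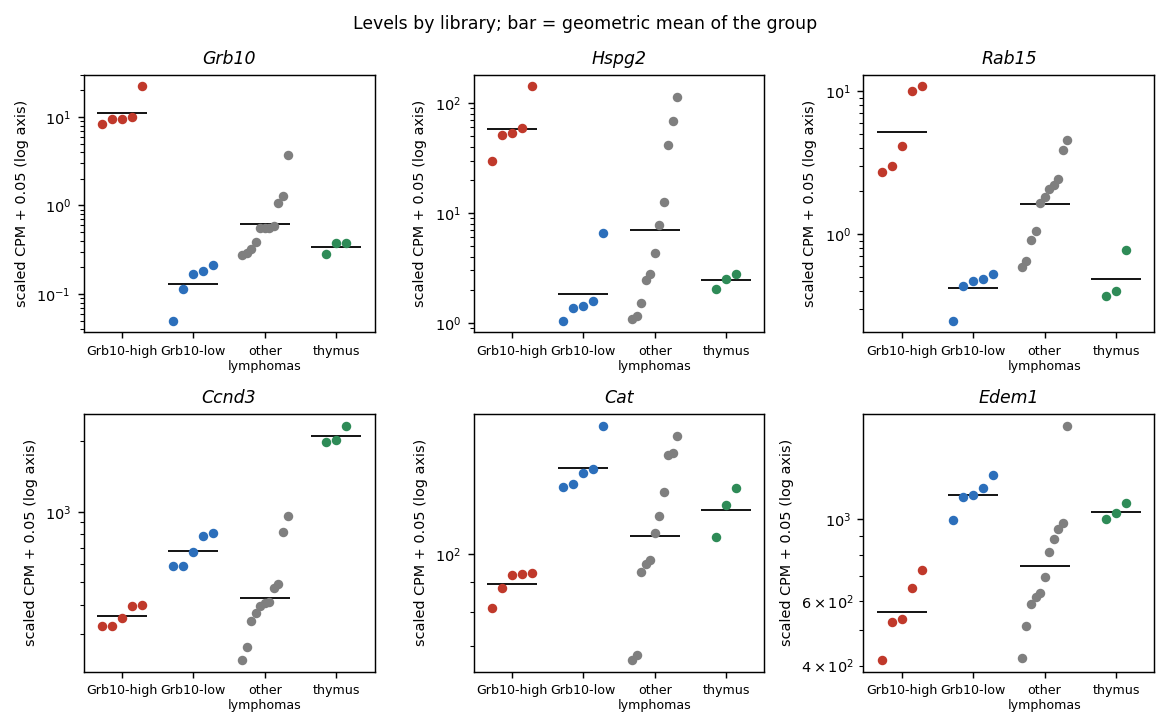
Scaled CPM plus 0.05, on a log axis, of 6 genes in every library, with a bar at each group's geometric mean; the groups were chosen on Grb10, so its panel shows the choice. Hspg2 and Rab15 lie higher and Ccnd3, Cat and Edem1 lower in all 5 Grb10-high (red) than in any of the 5 Grb10-low lymphomas (blue), while the other lymphomas (grey) spread over both ranges.

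Among genes lower in the Grb10-high group, Ccnd3 had the smallest p. It encodes cyclin D3, which drives the expansion of thymocytes after the first receptor rearrangement. Its levels were 350.1, 395, 399, 324 and 325 CPM in the high and 809.8, 789, 587, 675 and 586 CPM in the low lymphomas, all under the 1977 to 2333 CPM of thymus. The log2 fold change was -0.93 ± 0.13 (SE), adjusted p = 0.097, and its spread within each group was small.

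Edem1, which extracts misfolded glycoproteins from the endoplasmic reticulum for degradation, had 534, 728, 414, 650.5 and 525 CPM in the high and 1151, 997, 1316, 1216 and 1159 CPM in the low lymphomas. Cat, the peroxide-degrading catalase, had 81.2 to 93.1 CPM in the high and 129.8 to 165 CPM in the low lymphomas, a narrow range within each group. Zfyve28, a FYVE-domain protein that promotes EGF receptor turnover, had 1.64 to 7.33 CPM in the high and 13.6 to 44.9 CPM in the low lymphomas. Fbxl12, the substrate receptor of a ubiquitin ligase, had 43.2 to 57.6 CPM in the high and 64.8 to 106 CPM in the low lymphomas. The log2 fold changes of Edem1, Cat, Zfyve28 and Fbxl12 were -1.02 ± 0.16, -0.64 ± 0.10, -2.88 ± 0.48 and -0.81 ± 0.15 (SE), with edgeR adjusted p-values from 0.154 to 0.249. The genes named for the smallest p had the same sign under each alternative in which they were tested, among them a term for Ikzf1 mutation and the unmutated lymphomas alone. DESeq2 called each of them, with DESeq2 adjusted p-values from 4.01e-14 for Hspg2 to 0.000389 for Polr2g.

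Several of the largest gaps in the lower direction were in genes of low level. Others were not: Scn2b, Vash1 and Arl5c averaged 91.9, 118.5 and 82.6 CPM in the Grb10-low group. Iltifb, a near-identical copy of Il22 with which it may share reads, had 0 reads in the 5 Grb10-high libraries and 1373 in the 5 Grb10-low ones, where its levels were 15.4, 1.12, 9.16, 25.1 and 0.828 CPM. Thymus was at 0 as well. Upk1b (an uroplakin), Ddr1 (a collagen receptor kinase), Cacna1e (a calcium channel subunit), Vwce, Scn2b (a sodium channel subunit), Vash1 (vasohibin) and Arl5c also had non-overlapping groups, with log2 fold changes of -4.7, -4.03, -3.94, -3.59, -3.2, -2.97 and -2.95. Their edgeR adjusted p-values were 0.273 for Upk1b and up to 0.453 for Vash1. Vash1 was uneven within the Grb10-high group, at 48.6 CPM in TL21 and 24.7 CPM in TL30 but 0.154 to 2.04 CPM in the other 3.

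**Figure D2:**
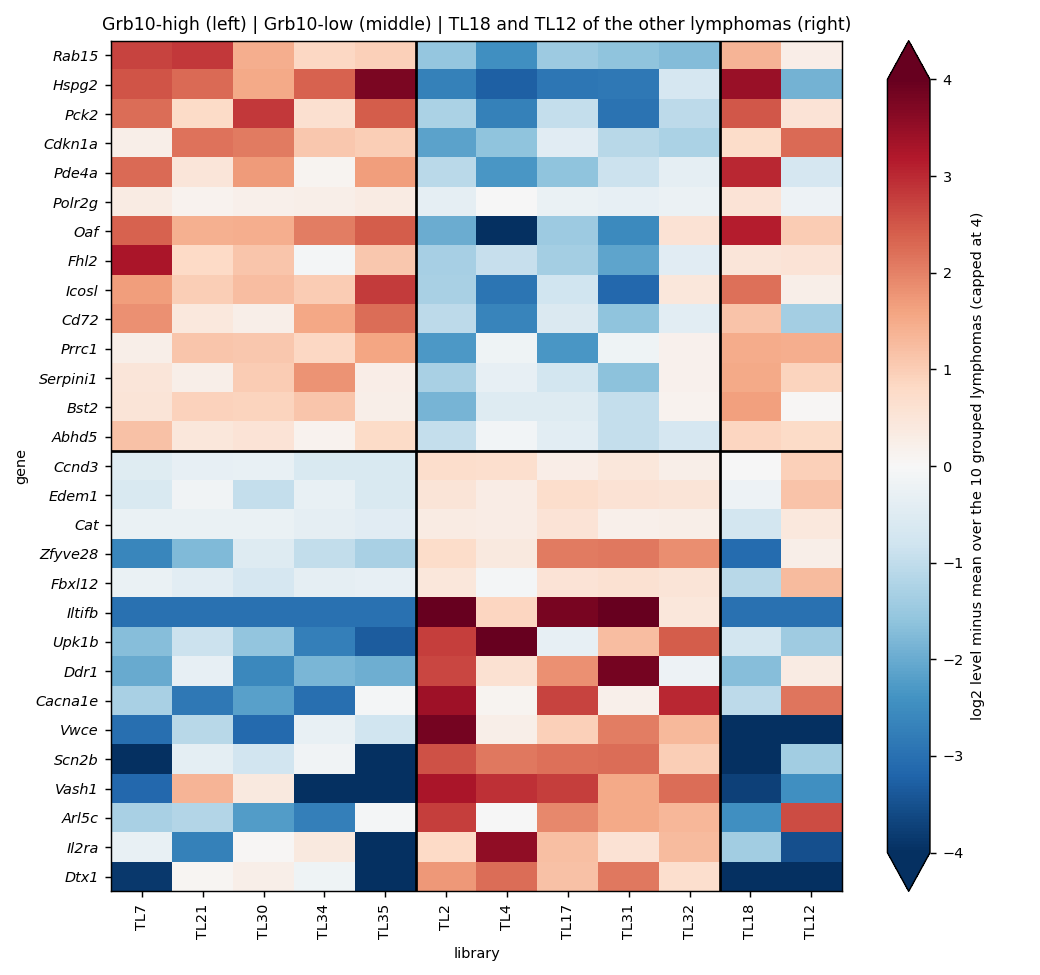
Log2 level of each gene named by p or by size, minus its mean over the 10 grouped lymphomas (colour capped at 4), with Grb10-high columns left, Grb10-low in the middle and TL18 and TL12 right. The genes were picked for separating the groups, so the left and middle blocks differ by choice; TL18, which took no part in the choice, has the colours of the left block in most rows.

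The Notch pathway list was described next, since Dtx1 and Il2ra stood among the largest gaps. Notch receptors are cut on ligand binding, and the freed domain joins RBPJ to switch on targets such as Dtx1, Hes1, Heyl, Nrarp, Ptcra and Il2ra. Of its 20 tested members, 14 had a negative fold change and the median was -0.28, against 0.03 over all genes tested. Unadjusted p-values under 0.05 were reached by 1 member in the higher and 7 in the lower direction, against 5.30% and 5.07% of all genes tested. The groups did not overlap for 4 members (Notch1, Notch3, Dtx1 and Il2ra), all lower, against 1.49% of all genes. Dtx1 and Il2ra, for which the list was taken up, are among these 4 and among the 7. Both counts were therefore raised in part by the choice of the list. No member passed adjustment over all genes, in edgeR or DESeq2.

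Notch1 had 76.5, 862, 998, 972 and 179.6 CPM in TL7, TL21, TL30, TL34 and TL35, against 3085, 1630, 1429, 2257 and 1083 CPM in TL2, TL4, TL17, TL31 and TL32. Dtx1, a ubiquitin ligase that is one of its direct targets in thymocytes, had 12.3, 191, 214, 162 and 9.56 CPM in the high and 597, 852, 406, 785 and 288 CPM in the low lymphomas. Both genes had the same order: the low group, then TL21 with TL30 and TL34, and far beneath them TL7 and TL35. For Notch1 the low group and TL21, TL30 and TL34 nearly met, at 1083 CPM in TL32 and 998 CPM in TL30. TL7 and TL35 lay below the thymus ranges of 227 to 289.6 CPM for Notch1 and 37.7 to 51.4 CPM for Dtx1. Notch3 followed the same order, with 0.306, 169.9, 209, 242 and 37.7 CPM in the high and 264, 438, 307, 571 and 265 CPM in the low lymphomas. Il2ra (CD25), a chain of the interleukin-2 receptor, did not: its lowest value, 4.39 CPM, was in TL35, but TL21 had 19.7 CPM and TL7, TL30 and TL34 had 104, 133 and 170.1 CPM, against 195 to 1519 CPM in the low group.

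The log2 fold changes were -1.61 ± 0.63 for Notch1, -2.31 ± 0.80 for Dtx1, -1.48 ± 0.96 for Notch3 and -2.55 ± 0.93 for Il2ra (SE), with edgeR adjusted p-values of 0.452, 0.413, 0.613 and 0.427. Without TL7 and TL35 they were -1.004 ± 0.32, -1.63 ± 0.35, -0.83 ± 0.28 and -2.24 ± 0.93, so the sign did not rest on that pair while much of the size for Notch1, Dtx1 and Notch3 did. Ptcra, the pre-T-cell receptor alpha chain, set TL7 and TL35 apart without separating the groups: it had 0.153 and 0.25 CPM there, 138, 80.8 and 229.7 CPM in TL21, TL30 and TL34, and 109 to 278 CPM in the low group. Nrarp, a feedback inhibitor of Notch, did the same, at 0.817 and 2.21 CPM against 36 to 64.3 CPM in the other 3 high and 10.6 to 67.1 CPM in the low lymphomas.

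**Figure D3:**
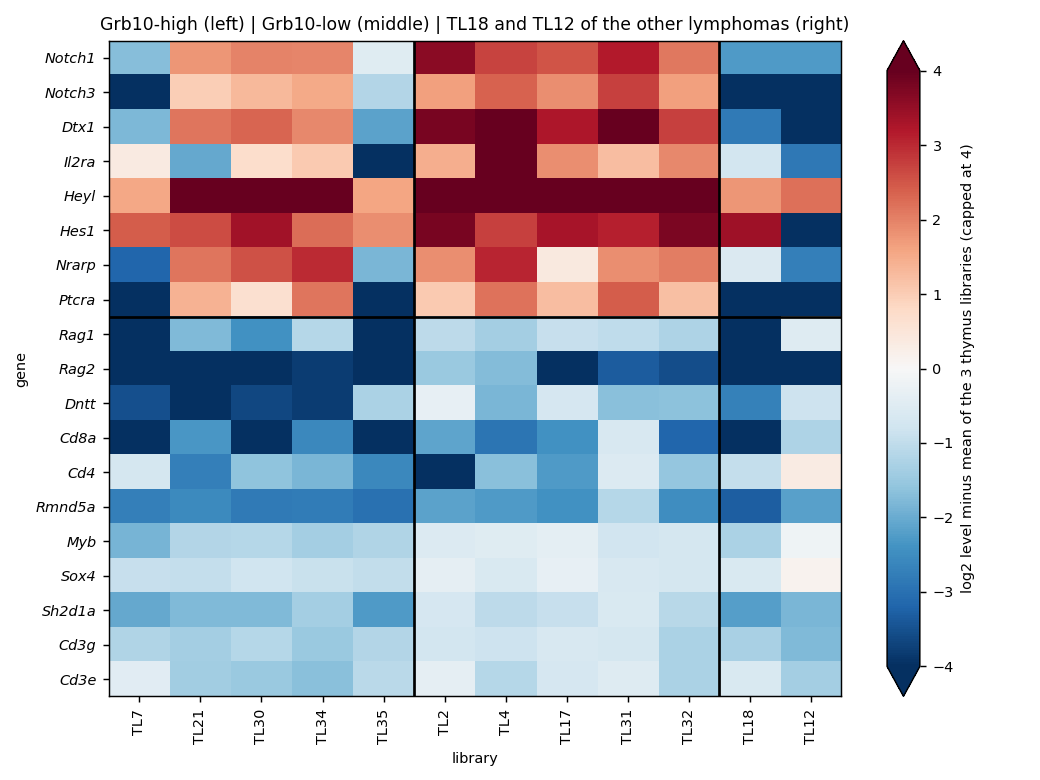
Log2 level minus the mean of the 3 thymus libraries (colour capped at 4) for genes of the Notch list (upper block) and of thymocyte stage and T-cell receptor signalling (lower block), with Grb10-high columns left, Grb10-low in the middle and TL18 and TL12 right. TL7 and TL35 fall under thymus for Notch1, Notch3, Dtx1 and Ptcra, while TL21, TL30 and TL34 lie above thymus but beneath the Grb10-low lymphomas for Notch1, Notch3 and Dtx1.

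Double-positive thymocyte genes had the most negative median of the 44 lists, -0.66 over 17 tested members, of which 13 were lower, 6 of them at an unadjusted p under 0.05 (5.07% of all genes tested), and none was higher at that level (5.30% of all genes). Rmnd5a, part of a ubiquitin ligase complex, did not overlap between the groups and had 235 to 319 CPM in the Grb10-high and 335 to 856 CPM in the Grb10-low lymphomas. Dntt, the terminal transferase that adds bases at receptor junctions, had 191, 114, 174, 156 and 904 CPM in the high and 1731, 611, 1371, 682 and 699 CPM in the low lymphomas. TL35 alone reached the low group's range, and without TL7 and TL35 the log2 fold change was -2.78 ± 0.42 (SE), against -1.71 ± 0.60 with them. Rag1 and Rag2, the recombinase genes, were lowest in TL7 (31 and 0.306 CPM) and TL35 (33.7 and 0.321 CPM). Rag1 reached 516 to 1244 CPM in the other 3 high and 1068 to 1466 CPM in the low lymphomas. Rag2 had 5.31 to 22.2 CPM in the other 3 high and 13 to 111 CPM in the low lymphomas. Cd8a was low in TL7 and TL35 too, at 12.7 and 52 CPM. It had 148 to 473 CPM in the other 3 high and 264 to 1526 CPM in the low lymphomas.

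The T-cell lineage factors gave a median of -0.47 over 25 genes. Of these, 3 were lower without overlap, Myb and Sox4 among them, against 1.49% of all genes. Myb, a transcription factor needed for thymocyte survival, had 293, 476, 488, 416 and 461 CPM in the high and 727, 766, 808, 632 and 652 CPM in the low lymphomas (log2 fold change -0.73 ± 0.15, SE; adjusted p = 0.28). Sox4 had 155 to 174 CPM in the high and 188 to 242 CPM in the low lymphomas. The T-cell receptor signalling list had a median of -0.40 over 28 genes, with 23 negative, 8 of them at an unadjusted p under 0.05 (5.07% of all genes tested) and 1 higher at that level (5.30%). Sh2d1a (SAP), an adaptor of SLAM receptors, had 51.6 to 96.2 CPM in the high and 116 to 162 CPM in the low lymphomas. Cd3g, another receptor subunit, had 286 to 369 CPM in the high and 336 to 525 CPM in the low lymphomas. Without TL7 and TL35, 26 of the 28 genes of this list were negative and the median was -0.48.

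Several lists with a positive median over the 5 Grb10-high lymphomas rested on TL7 and TL35. Interferon-response genes had a median of 0.89 over 33 genes, 31 of them positive and 11 at an unadjusted p under 0.05, none of these negative. Over all genes tested 5.30% were higher at that level and 5.07% lower. Without TL7 and TL35 the median was -0.14 with 13 positive. Rsad2 (viperin), an antiviral enzyme, had 42.2 CPM in TL7, 9.24 CPM in TL35 and 1.39 to 2.25 CPM in the other 3 high, against 0.828 to 2.1 CPM in the low lymphomas. Irf8, a factor of myeloid, dendritic and B cells, had a positive fold change with and without the pair, at 32 to 119.8 CPM in the high and 10.1 to 36.8 CPM in the low lymphomas (log2 fold change 1.53 ± 0.46, and 1.06 ± 0.38 without the pair). The mature thymocyte list had a median of 0.70, and -0.69 without the pair, led by Cd52 at 297 CPM in TL7 and 103 CPM in TL35 against 6.82 to 18.7 CPM in the other 3 high and 7.38 to 30.3 CPM in the low lymphomas. S1pr1, the receptor by which mature thymocytes leave the thymus, had 78.9 and 19.9 CPM in TL7 and TL35, against 0.983 to 1.75 CPM in the other 3 high and 0.72 to 6.43 CPM in the low lymphomas.

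Among the markers of other cell types, several lists lost their positive median without the pair. The B-cell list had a median of 1.52 over 11 genes and -0.89 without TL7 and TL35, the dendritic list 1.41 and -0.08, and the natural killer and cytotoxic list 1.06 and -0.03. The thymic epithelial list, with 4 genes tested, had 0.26 and -0.008. The erythroid list kept a positive median, 1.23 and 0.72 without the pair, as did the neutrophil list, 0.51 and 0.39, and the macrophage list stood at -0.01 and -0.02. Ly6a (Sca-1), found on activated lymphocytes and progenitors, had 251 and 256 CPM in TL7 and TL35, 2.42, 16.8 and 46.3 CPM in TL21, TL30 and TL34, and 2.35 to 10.4 CPM in the low lymphomas. Tbx21 (T-bet), the factor of type 1 and cytotoxic lymphocytes, did not depend on the pair: it had 37.9, 16.4, 5.75, 37.3 and 14.8 CPM in the high and 1.4 to 6.51 CPM in the low lymphomas, with a log2 fold change of 2.61 ± 0.61 (SE; adjusted p = 0.28), and 2.41 ± 0.67 without the pair.

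With TL7 and TL35 left out, other lists had more positive fold changes. Ribosome biogenesis genes were positive in 28 of 28 with a median of 0.46, against 27 of 28 and 0.22 with all 10 lymphomas. Oxidative phosphorylation genes were positive in 30 of 31 with 0.31, against 29 of 31 and 0.21. E2F and replication genes were positive in 32 of 33 with 0.26, against 17 of 32 and 0.05. No gene passed adjustment in that comparison of 3 with 5, where 2039 of 11735 genes had an unadjusted p under 0.05. Summed over the ribosome biogenesis, oxidative phosphorylation and E2F lists, TL7 was the lowest of the 10 lymphomas, at 4943, 5740 and 3744 CPM. TL35 was not low, at 8749, 9750 and 7875 CPM. The low lymphomas had 6338 to 9388, 7320 to 8113 and 6999 to 9690 CPM. The unfolded-protein and amino-acid response list was positive in both, with medians of 0.39 over 10 lymphomas (20 of 24 positive, 4 at an unadjusted p under 0.05, against 5.30% of all genes) and 0.48 without the pair (22 of 24). Hspa5 (BiP), the main chaperone of the endoplasmic reticulum, had 1050, 632, 886, 704 and 583 CPM in the high and 503, 603, 512, 354 and 534 CPM in the low lymphomas. Calr (calreticulin) had 571 to 998 CPM in the high and 504 to 589.6 CPM in the low lymphomas. Pdia6, a disulfide isomerase, had 191 to 304 CPM in the high and 151 to 209.8 CPM in the low lymphomas. None of the 3 passed the threshold in edgeR. DESeq2 called Calr and Pdia6 of this list, against 1.82% of all genes in either direction.

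**Figure D4:**
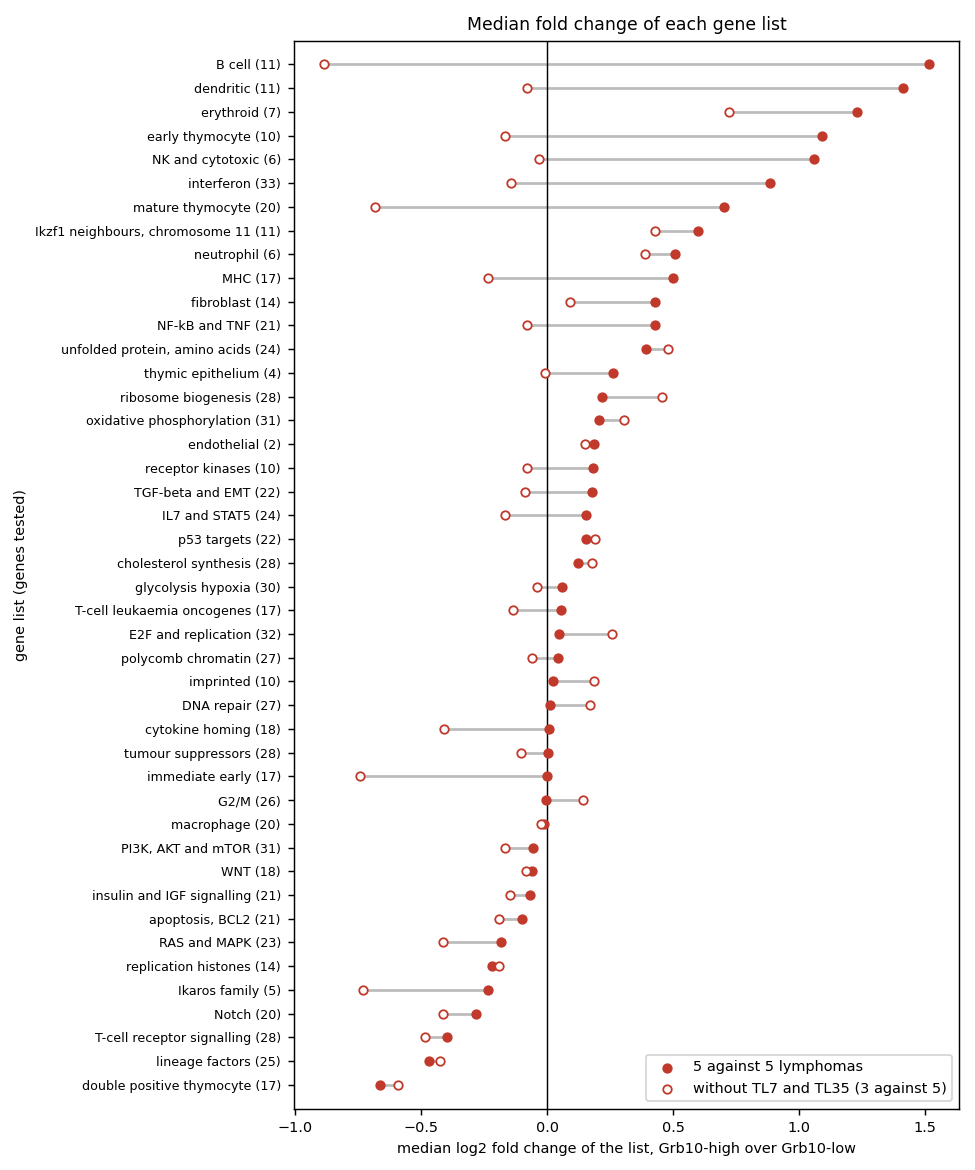
Median log2 fold change, Grb10-high over Grb10-low, of the tested genes of each of 44 lists, over the 5 and 5 lymphomas (filled) and without TL7 and TL35 (open). The lists of B cells, dendritic cells, interferon and mature thymocytes pass from above to below 0 when the pair is left out, while those of double-positive thymocytes, lineage factors, T-cell receptor signalling and Notch stay below 0.

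The insulin and growth factor pathway on which Grb10 acts had a median of -0.07 over 21 tested genes, with 10 positive. Pdpk1 (PDK1), the kinase that activates AKT, was the 1 gene without overlap. Of all genes tested, 1.49% were lower and 0.703% higher without overlap. Pdpk1 had 87.5 to 139.7 CPM in the Grb10-high and 162 to 233 CPM in the Grb10-low lymphomas (log2 fold change -0.71 ± 0.16, SE, edgeR adjusted p = 0.28). Socs2, an inhibitor of growth hormone signalling, had the smallest p among those higher (1.94 ± 0.72, SE; adjusted p = 0.435), and had 0.38 ± 0.55 without TL7 and TL35. The insulin receptor Insr had 33.8 to 56.8 CPM in the high and 44.5 to 66.2 CPM in the low lymphomas. Igf1r had 23.4, 118, 43.5, 12.9 and 59 CPM in the high and 93.2, 111, 104, 97.3 and 84.9 CPM in the low lymphomas, so that 4 of the 5 high lymphomas lay below the whole low group and TL21 above it. The receptor substrates were low in level: Irs1 had 0 to 4.6 CPM in the high and 0 to 33.6 CPM in the low lymphomas. Irs2 had 0.205 to 10.8 CPM in the high and 3.5 to 26.9 CPM in the low lymphomas. Igf2r, the clearance receptor of Igf2, had 102 to 197 CPM in the high and 71.4 to 219 CPM in the low lymphomas. Of the paralogous adaptors, Grb7 had 0.59 to 2.57 CPM in the high and 0.239 to 2.55 CPM in the low lymphomas, and Grb14 had 1 and 3 reads in all.

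In the PI3K, AKT and mTOR list the median was -0.06 over 31 genes, with 6 lower and 0 higher at an unadjusted p under 0.05, against 5.07% and 5.30% of all genes tested. Pik3r5, a regulatory subunit of the G-protein-coupled PI3K, had 23.6 to 53.9 CPM in the high and 51.5 to 124 CPM in the low lymphomas. Its catalytic partner Pik3cg had 63.5 to 143 CPM in the high and 130 to 165 CPM in the low lymphomas. Myc had 145 to 322 CPM in the high and 234 to 389 CPM in the low lymphomas. Cdkn2a, the Ink4a/Arf locus, reached 76.6 CPM in TL7 of the high and 75.7 CPM in TL32 of the low group and 1.03 to 9.24 CPM elsewhere. Bcl11b, a tumour suppressor of T-cell commitment, had 190 to 447 CPM in the high and 317 to 630 CPM in the low lymphomas, all below the thymus range of 973 to 1013 CPM (adjusted p = 0.458).

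Neighbours of Grb10 on chromosome 11 were examined because some of these lymphomas had low expression of proximal chromosome 11. The list of genes around Ikzf1 on this chromosome had a median of 0.60 over 11 tested genes, 10 of them positive. Without TL7 and TL35 the median was 0.43, and it was positive under all 25 alternatives. Ddc, the adjacent gene for aromatic amino acid decarboxylase, had 162, 78.6, 22.5, 62.7 and 110.1 CPM in the Grb10-high and 2.31, 0.2, 6.82, 19.9 and 53.3 CPM in the Grb10-low lymphomas, against 1.29 to 2.21 CPM in thymus. TL30 of the high group fell below TL32 of the low group, and the log2 fold change was 2.43 ± 1.05 (SE; adjusted p = 0.473). Fignl1, which lies between Ikzf1 and Ddc and serves homologous recombination, had 59.2 to 184 CPM in the high and 51.1 to 113 CPM in the low lymphomas. Ikzf1 itself had 1322, 542, 589, 483 and 835 CPM in the high and 79.3, 603, 329.5, 430.4 and 1011 CPM in the low lymphomas, with a log2 fold change of 0.64 ± 0.54 (SE; adjusted p = 0.701). Cobl, an actin nucleator on the far side of Grb10, held 6 reads in the high and 2 in the low libraries. Ikzf3 (Aiolos), a partner of Ikaros, had 140 to 264 CPM in the high and 234 to 380 CPM in the low lymphomas (log2 fold change -0.68 ± 0.21).

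Over the 56 placed genes in the first 10 Mb of chromosome 11, the median log2 ratio to thymus was 0.03, 0.07, -1.02, 0.14 and 0.12 in TL7, TL21, TL30, TL34 and TL35, against -0.11, -0.87, -0.70, -0.84 and -0.12 in TL2, TL4, TL17, TL31 and TL32. One Grb10-high lymphoma (TL30) and 3 Grb10-low ones thus stood at -0.70 or below. This stretch ends short of Ikzf1, which starts at position 11685003, and of Ddc and Grb10 beyond it. The group means were -0.13 ± 0.50 and -0.53 ± 0.38 (SD, n = 5 each; exact two-sided permutation test p = 0.175, adjusted over 4 values 0.444, the smallest possible being 0.00794). Leaving out single lymphomas gave differences of 0.31 to 0.62. The unadjusted exact p was 0.0238 without TL30, the high lymphoma with the lowest value, and 0.119 to 0.317 without any other. For chromosome 15 the median ratio was 0.52, 0.55 and 0.49 in TL30, TL34 and TL35 and 0.03 or less in TL7 and TL21, against 0.51 in TL32 and 0.14 or less in the other 4 low lymphomas (exact p = 0.254). With the chromosome 15 level as a term in the fit, 0 genes passed.

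Igf2, the imprinted growth factor gene, was not in the test because few libraries held it, but it was at 75.5 CPM in TL7 and 468.5 CPM in TL12, the lymphoma with the sixth most Grb10, and at no more than 0.744 CPM in any other lymphoma. The list of imprinted genes as a whole had a median of 0.03 over 10 tested genes, 5 of them positive.

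The 11 lymphomas that belong to neither group allow the pattern to be read outside the libraries that chose it. TL18, with 1.02 CPM of Grb10, lay nearer to the Grb10-high than to the Grb10-low mean in 75 of the 81 higher and 165 of the 172 lower genes (94.9% of both, on the log2 scale). The other 10 had 24.9 to 68.8%, and these shares did not follow the order of Grb10. The 68.8% was in TL22, which had the least Grb10 of the 11, at 0.229 CPM. TL20, at 0.507 CPM of Grb10, had 65.6%, and TL19, at 1.24 CPM, had 64.0%. TL12, at 3.69 CPM the nearest in Grb10 to the high group, had 37.9%. Like TL7 and TL35, both had low Notch1 (52.3 CPM in TL18, 52.7 CPM in TL12), Dtx1 (5.99 and 0.085 CPM) and Ptcra (0.096 and 0.382 CPM), but TL12 had 2.76 CPM of Hspg2, against 114 CPM in TL18. TL12, TL19 and TL18, the 3 highest of the 11 in Grb10, had the 3 lowest Dtx1 levels, TL19 being at 106 CPM. The other Notch genes looked at did not line up in this way. Counted from the highest level, TL12, TL19 and TL18 ranked 10, 8 and 11 of the 11 for Notch1. For Il2ra they ranked 11, 10 and 6.

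Since TL12 and TL18 stand apart in Notch1 and Dtx1, correlations with Grb10 were taken over the other 9 lymphomas, for the 12 genes with the smallest p and Notch1, Dtx1, Il2ra and Bst2. The sign matched that of the group difference in 15 of 16 genes by Pearson's r, in 12 by Spearman's rho and in 13 by Pearson's r without TL19 and TL22, the pair most distant from the median Grb10 level. No chance rate stands beside these counts, since the genes were picked for separating the groups and share the same 9 lymphomas. In those lymphomas Grb10 rested on 4 (TL22) to 20 (TL19) reads a library, so its order among them is partly within counting error. The lowest adjusted exact permutation p was 0.29 for Pearson's r and 0.709 for Spearman's rho. For Dtx1 r was -0.645 (exact two-sided permutation p = 0.0589, adjusted 0.29; Spearman's rho -0.55, p = 0.133, adjusted 0.709), and -0.193 without TL19 and TL22. For Hspg2 it was -0.123 (exact p = 0.761, adjusted 0.821; rho -0.033, p = 0.948, adjusted 1), and 0.474 without TL19 and TL22.

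**Figure D5:**
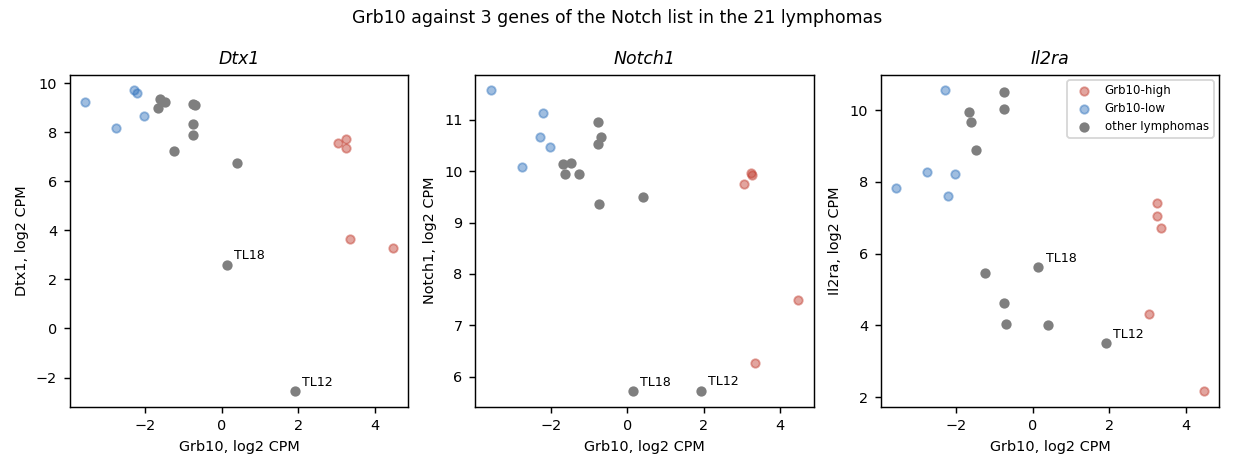
Log2 CPM of Dtx1, Notch1 and Il2ra (vertical axes) against log2 CPM of Grb10 (horizontal axis) in the 21 lymphomas: Grb10-high (pale red), Grb10-low (pale blue), which were chosen by their place on the horizontal axis, and the 11 others (grey). TL12 and TL18 lie apart at low Dtx1 and Notch1, and within the other 9 no relation passed adjustment.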

How the data were processed

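The data are poly(A) RNA sequencing of cell suspensions. Per the submitters' processing notes, the authors worked on GRCm38.p6 with edgeR, SAMtools, HTSeq 0.6.1, HISAT2 2.0.1 and cutadapt 1.9.1. Whether counting used strand is not stated, nor are the tools' settings, so reads of overlapping antisense genes cannot be told apart. The authors deposited whole-number counts for 21878 gene symbols in all 24 libraries, a TPM table of the same libraries, and a table of scaled CPM (a normalized signal) for 11749 genes in the 10 lymphomas. In that deposited signal table, 100% of values were whole reads within 0.01 once divided by the value of 1 read, and 100% of them equalled the deposited counts; the count test on its genes called 0 genes. The labels give 1 batch date for all libraries. Group membership follows the Grb10 rule, not a label; the Ikzf1 status comes from the authors' column names.

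The deposited counts were analysed with edgeR 4.0.16 in R 4.3.3 (TMM, filterByExpr, glmQLFit and glmQLFTest), with Benjamini-Hochberg adjustment over all genes but Grb10 and a threshold of 0.05; SE is the fold change over the root of F. DESeq2 1.42.0 and limma 3.58.1 served as alternatives. The steps were tested on simulated data. Log2 levels use a prior count of 2. No 2 libraries agreed within sampling noise (chi-square per degree of freedom 59.6 to 310.4 over 45 pairs). GENCODE M21 gave positions on GRCm38 (94.2% of symbols, 97.7% of counts). Promoter windows (250 bases before to 50 after a start) are RefSeq's.

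The members, gene lists and tests were chosen with earlier results of these data known. Named genes are 18 chosen for their link to Grb10, Ikzf1 or lymphoma, the 6 with the smallest p in each direction since fewer than that passed, and up to 2 of a list; gene models known by a number and receptor segments are not named. Values of some of these genes are not reported here. The 12 largest differences in each direction without overlap and with at least 10 CPM in the higher group, further members of the Notch, thymocyte, interferon and stress lists, the lymphomas TL7 and TL35 and the correlations were added after the values were seen. Correlations were first computed over all 11 other lymphomas and then restricted to 9, once TL12 and TL18 were seen to stand apart in Notch1 and Dtx1; the values over 11 are not given.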

Additional observations from a re-analysis of the deposited data

Results flagged for a closer look

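In 160 groups of 5 lymphomas (each named gene's log2 level and 4 summary values, in the Grb10-high and the Grb10-low group), 14 had a highest or lowest library far from the nearest other one, by Dixon's 95% limit of 0.71 of the range; chance gives about 1 in 20 groups. In the Grb10-high group these were Notch3 in TL7 (0.307 CPM), Sc5d, an enzyme of cholesterol synthesis, in TL7 (88.7 CPM), Dntt in TL35 (903.8 CPM), Irf8 in TL35 (119.8 CPM), and the median log2 ratio to thymus over the first 10 Mb of chromosome 11 in TL30 (-1.02).

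In the Grb10-low group, TL4 was apart with low Rab15 (0.200 CPM), low Fbxl12 (64.8 CPM), low Pik3r5 (51.5 CPM) and high Il2ra (1519 CPM). TL32 was apart with high Hspg2 (6.5 CPM), low Scn2b (42.5 CPM) and high Ly6a (10.4 CPM), TL17 with high Cat (164.8 CPM) and TL31 with high Rmnd5a (855.5 CPM).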

How the results depend on the processing

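Genes past the threshold numbered 0 in edgeR's test and in most alternatives. DESeq2 called 100 genes higher and 110 lower. log2 TPM with a pseudocount of 1 or 0.1 and log2 of the authors' CPM called 1, Hspg2; the fit of all 24 libraries called 1, Rab15. Leaving out single lymphomas gave 0 to 1 higher and 0 lower; the 1 was Hspg2, without TL32. RLE and upper-quartile factors, no filter on low counts, an Ikzf1 mutation term, unmutated lymphomas alone, the 6 lymphomas with proximal chromosome 11 near the thymus level, and, added after seeing the data, the chromosome 15 term and leaving out TL7 and TL35 gave 0. Genes whose groups do not overlap numbered 44 to 110 higher and 119 to 218 lower with the same libraries; with fewer libraries, which raises such counts by construction, 104 to 948 and 197 to 1191. No paired analysis was possible because the lymphoma numbers name tumours and the groups share none.

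Of 76 genes, 68 kept their sign under every alternative. Ikzf1 was -0.23 in unmutated lymphomas, Grb7 -0.25 there and -0.0093 with the chromosome 15 term, and Igf2r 0.0797 in unmutated lymphomas. Without single lymphomas Igf2r ran from 0.0068 (TL21), 0.0076 (TL4) and 0.033 (TL34) to 0.10 (TL2). Cdkn2a was -0.018 without the filter, -0.092 in limma-voom, -0.24 and -0.30 in log2 TPM, -0.13 in the authors' CPM, -0.50 with the mutation term, -3.19 in unmutated lymphomas, -0.95 without the lymphomas low on proximal chromosome 11, -1.78 without TL7 and TL35, and -0.15, -0.28, -2.10, -0.24 and -0.23 without TL2, TL4, TL7, TL17 and TL31; without single lymphomas it ran from -2.10 to 2.04. Nrarp was 0.25 in unmutated lymphomas, 0.54 without TL7 and TL35 and 0.23, 0.14 and 0.13 without TL4, TL7 and TL35, and ran from -0.65 to 0.23 without single lymphomas. Without TL7 and TL35, Irf7 was -0.33, Cd52 -0.68 and S1pr1 -1.13. Among the summary values, the difference over proximal chromosome 11 was 0.31 to 0.62 without single lymphomas, that of chromosome 15 0.15 to 0.31, that of macrophage markers -10.9 (without TL7), -8.95 (without TL2) and up to 182.6 CPM, and that of total counts, in units of 1e+06, -6.06 to -2.34. The causes were not tested. Counts under about 3 reads a library limit statements on Grb10 within the low group. Counts of 4 to 20 reads limit those within the 9 lymphomas used for correlations, and counts of 6 to 9 reads those on thymus.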
